A study of Mus musculus with 2 samples.

Results

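The 9 antigen presentation genes H2-K1, H2-D1, B2m, Tap1, H2-Aa, H2-Ab1, H2-Eb1, Cd74 and Ciita were followed by symbol through single-cell RNA-seq of mouse olfactory epithelium, the sheet at the roof of the nasal cavity where olfactory sensory neurons (OSNs) sit. All 9 were found among the 32534 features of the deposited count matrices. The series holds 1 library from a female of 9 weeks, hemizygous for Tg(Or8a1-OR1A1,-MAPT/mCherry)D736Feins on the strain of that name, a transgene whose label cites the human odorant receptor gene OR1A1. The other library came from a wild-type female of 8 weeks whose strain label names the line 10G4-V2.2-#7/Jax, crossed to Bl6/129SF1/J. Both epithelia were dissociated with the same enzymes and loaded for droplet sequencing from the 3′ ends of transcripts, counted by unique molecular identifiers (UMIs). Genotype, strain and age differ together between the libraries and cannot be told apart, and with 1 library per genotype no test of a difference was possible. Intervals are exact at 95% and reflect counting error alone, not the spread between animals or cells.

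Antigen presentation runs along 2 routes. Class I molecules, made of a heavy chain such as H2-K1 or H2-D1 and the light chain beta-2 microglobulin (B2m), carry peptides of the cell's own proteins to CD8 T cells, after the transporter subunit Tap1 has helped to move the peptides into the endoplasmic reticulum. Class II molecules pair an alpha chain with a beta chain. H2-Aa and H2-Ab1 are the alpha and beta chains of the same isotype. H2-Eb1 is the beta chain of the second isotype, which has another alpha chain. These molecules carry peptides of engulfed proteins to CD4 T cells. The invariant chain Cd74 guards their groove on the way, and Ciita is the master switch of class II transcription. Class II is best known from dendritic cells, macrophages and B cells, but some epithelia also make it, and resting neurons are known for low class I.

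Promoters of 6 of the 9 genes were found in a RefSeq table of GRCm38.p6, and those of the chains and of B2m are shown because these genes carry the comparisons of levels. The 250 bases before each start lie at chr17:34000348-34000597 on the minus strand for H2-K1, chr17:35262844-35263093 on the plus strand for H2-D1 and chr2:122147437-122147686 on the plus strand for B2m. The class II windows lie at chr17:34287824-34288073 on the minus strand for H2-Aa and chr17:34305617-34305866 on the plus strand for H2-Eb1. All are written 5′ to 3′ on the strand of the gene, and capitals mark matches, on either strand, to the Y box (CCAAT), the X box core (AGNAACNG), an interferon regulatory factor core (IRF, AANNGAAA) and a kappa B motif (GGGNN followed at once by TTCCC).
H2-K1: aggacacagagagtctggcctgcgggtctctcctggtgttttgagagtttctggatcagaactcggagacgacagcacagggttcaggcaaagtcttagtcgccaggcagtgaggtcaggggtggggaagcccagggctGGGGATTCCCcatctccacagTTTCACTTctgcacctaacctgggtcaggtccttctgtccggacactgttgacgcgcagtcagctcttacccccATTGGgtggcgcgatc
H2-D1: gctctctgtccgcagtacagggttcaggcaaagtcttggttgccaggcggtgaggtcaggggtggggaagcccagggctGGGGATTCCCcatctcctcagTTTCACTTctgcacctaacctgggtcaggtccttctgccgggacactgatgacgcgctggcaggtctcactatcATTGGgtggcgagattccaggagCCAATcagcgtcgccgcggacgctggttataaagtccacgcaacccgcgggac
B2m: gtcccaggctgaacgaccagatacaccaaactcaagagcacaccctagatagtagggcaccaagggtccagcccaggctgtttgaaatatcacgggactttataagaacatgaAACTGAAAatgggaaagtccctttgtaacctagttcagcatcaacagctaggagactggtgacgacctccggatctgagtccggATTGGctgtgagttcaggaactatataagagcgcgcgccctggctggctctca
H2-Aa: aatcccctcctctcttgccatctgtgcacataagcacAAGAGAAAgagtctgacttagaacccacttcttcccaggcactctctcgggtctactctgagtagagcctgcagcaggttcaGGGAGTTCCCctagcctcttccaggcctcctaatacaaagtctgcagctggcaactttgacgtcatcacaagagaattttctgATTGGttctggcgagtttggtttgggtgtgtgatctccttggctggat
H2-Eb1: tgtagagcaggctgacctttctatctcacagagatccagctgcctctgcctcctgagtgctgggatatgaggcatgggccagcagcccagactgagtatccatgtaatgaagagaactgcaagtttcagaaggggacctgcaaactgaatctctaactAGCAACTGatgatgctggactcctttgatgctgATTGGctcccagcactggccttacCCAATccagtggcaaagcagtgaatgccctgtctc
No 2 matches overlapped in these windows. H2-K1 and H2-D1 shared an identical run of 47 bases, starting 141 bases before the start of H2-K1 and 201 before that of H2-D1, and 166 of 190 bases (87.4%) were identical when the windows were shifted by 60. That run holds the kappa B motif of both genes, and their IRF cores lie just past its end. B2m held an IRF core and a Y box, H2-Aa an IRF core, a kappa B motif and a Y box, and H2-Eb1 an X box core and a pair of Y boxes. The Tap1 window held a Y box alone. RefSeq also lists a second start of H2-K1, whose window at chr17:34000334-34000583 is not shown. That window held a further Y box at bases -6 to -2, and distances given here for H2-K1 are from the first start. Among 32851 promoter windows of the same length, 33.8% held a Y box, 21.3% an IRF core, 14.5% an X box core and 1.53% the kappa B motif. These letters are a description of the windows, and binding was not measured.

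The analysis holds 1745 transgenic cells with a median depth of 14440 UMIs and 1117 wild-type cells with a median of 12983 UMIs. Only 1 barcode was shared by the cells of both libraries. The feature added by the authors for the transgene had 2274 UMIs in 317 of 646 transgenic mature OSN-like cells and 0 in 441 wild-type ones, where a count of 0 allows up to 0.535 CPM (UMIs per 1000000 UMIs, at 3 counts). Cells were clustered without the 9 genes, and clusters were named from marker genes: each named class had at least 5 of its markers, and mature OSN-like cells all 9, at 2-fold or more above the other cells. A level is the gene's summed UMIs in a class over the class's summed UMIs, in CPM. The class I sum adds H2-K1, H2-D1 and B2m, and the class II sum adds H2-Aa, H2-Ab1, H2-Eb1 and Cd74. Barcodes of 1 to 99 UMIs, taken as free RNA, held a class I sum of 241 and 264 CPM and a class II sum of 454 and 783 CPM in the transgenic and wild-type libraries. Mitochondrial genes made 37.4% and 51.3% of these UMIs, against medians of 5.42% and 5.18% in the cells. This lowers the CPM of the other genes in free RNA, and levels set against free RNA below were not corrected for it.

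**Figure D1:**
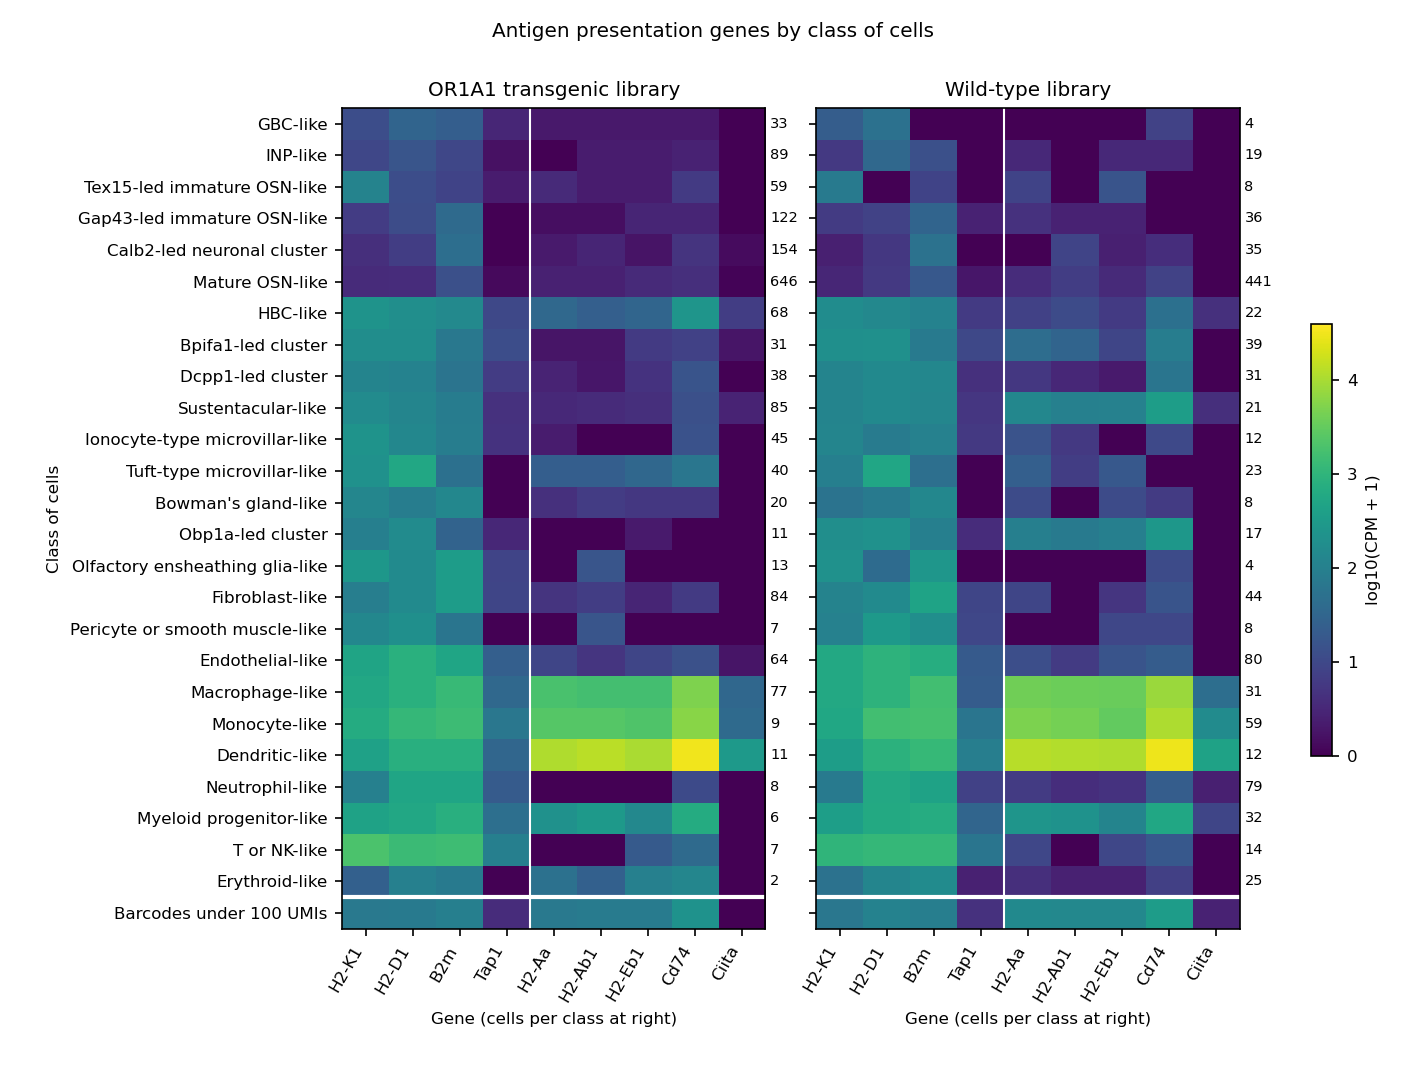
Level of each of the 9 genes (columns) in each class of cells (rows, with the number of cells at the right) and in barcodes under 100 UMIs (last row), on a log10(CPM + 1) colour scale, with the transgenic library at the left and the wild-type library at the right. Class II genes peak in dendritic-like cells, while class I genes reach most non-neuronal classes and are low in the neuronal ones.

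Class I levels set white blood cells and vessel cells at the top and neurons at the bottom in both libraries. Among transgenic classes of at least 20 cells, the class I sum was highest in macrophage-like cells at 2643 CPM (2528 to 2762), then in endothelial-like cells at 1812 CPM (1738 to 1889) and in tuft-type microvillar-like cells, the chemosensory cells marked by Trpm5, at 826 CPM (734 to 927). Mature OSN-like cells, marked by Omp, stood last at 17.8 CPM (15.2 to 20.8). In the wild-type library monocyte-like cells led at 3961 CPM (3814 to 4112), followed by macrophage-like cells at 3133 CPM (2932 to 3345) and endothelial-like cells at 2269 CPM (2181 to 2359), and mature OSN-like cells again stood last at 24.8 CPM (20.8 to 29.3). T or NK-like cells were too few to enter this order, with 4832 CPM over 7 transgenic cells and 3326 CPM over 14 wild-type cells. Neutrophil-like cells, 8 and 79 of them, had 1116 and 1123 CPM.

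Between these ends came the other epithelial and stromal cells. In the transgenic library fibroblast-like cells had 607 CPM, horizontal basal cell (HBC)-like cells, the quiescent stem cells marked by Krt5 and Trp63, 557 CPM, and ionocyte-type microvillar-like cells 454 CPM. Their intervals overlapped from fibroblast-like to HBC-like cells, and from ionocyte-type cells through the Bpifa1-led secretory cluster (426 CPM), sustentacular-like (373 CPM) and Bowman's gland-like cells (348 CPM). The wild-type order was similar, with fibroblast-like cells at 733 CPM, tuft-type cells at 669 CPM and the Bpifa1-led cluster at 476 CPM. With all cells counted, HBC-like (419 CPM), Dcpp1-led (404 CPM) and sustentacular-like cells (398 CPM) did not differ there beyond their intervals. In the wild-type Dcpp1-led cluster 1 cell held 35 of 106 H2-K1 and 45 of 135 H2-D1 UMIs, and class I sums without single cells were not compared. Counted over all UMIs, every one of these classes exceeded the class I level of free RNA, and every neuronal class was below it. Whether the epithelial classes exceed free RNA once its mitochondrial UMIs are left out was not tested.

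Within the epithelium the heavy chains lay between 118 and 229 CPM in HBC-like, sustentacular-like and Bpifa1-led cells. The Dcpp1-led cluster had 118 and 120 CPM of H2-K1 and 109 and 153 CPM of H2-D1 in the transgenic and wild-type libraries. Bowman's gland-like cells, 20 and 8 of them, had 128 and 54.9 CPM of H2-K1 and 86.4 and 78.5 CPM of H2-D1. HBC-like cells had 229 CPM of H2-K1 in the transgenic library against 171 CPM in the wild type, with 183 and 139 CPM of H2-D1 and 145 and 109 CPM of B2m. Sustentacular-like cells, which enfold the neurons, had 167 and 118 CPM of H2-K1, 121 and 152 CPM of H2-D1 and 84.4 and 128 CPM of B2m. Without the richest wild-type cell for each gene, wild-type H2-D1 was 123 CPM and B2m 104 CPM there. The Bpifa1-led cluster, whose leading gene encodes a secreted airway protein, had 178 and 197 CPM of H2-K1, 180 and 204 CPM of H2-D1 and 68.0 and 75.2 CPM of B2m. In mature OSN-like cells none of the 3 genes exceeded 17.8 CPM in either library.

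**Figure D2:**
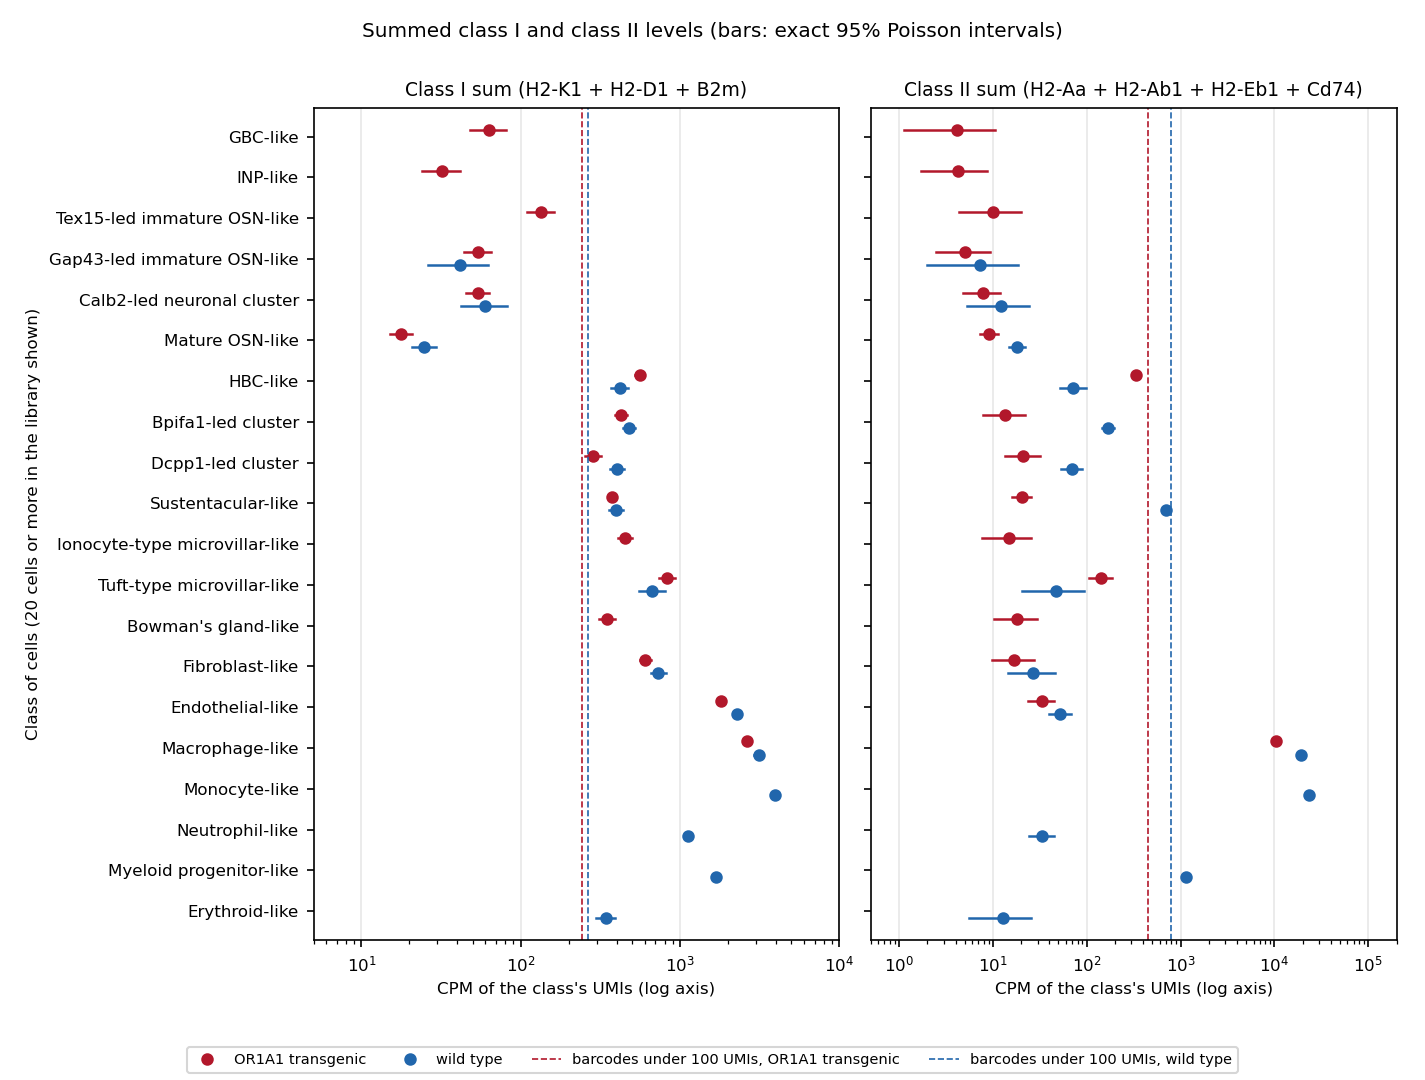
Class I sum (left panel) and class II sum (right panel) in CPM on log axes for each class with at least 20 cells in the library shown; points are class sums, bars exact 95% Poisson intervals, and dashed lines the level in barcodes under 100 UMIs. Transgenic points are red and wild-type points blue, and mature OSN-like cells have the lowest class I sums, 17.8 and 24.8 CPM.

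The balance of the heavy chains differed between classes, and in some classes between the libraries. H2-K1 made up 62.9% of H2-K1 plus H2-D1 UMIs in transgenic and 60.5% in wild-type ionocyte-type cells, and 55.6% and 55.2% in HBC-like cells. Endothelial-like cells leaned to H2-D1, with H2-K1 shares of 37.6% and 39.1%, as did macrophage-like cells at 40.5% and 38.4%. Low shares were seen in neutrophil-like cells, at 16.1% (8.02 to 27.7%) in transgenic and 11.5% (9.49 to 13.8%) in wild-type cells, and in tuft-type cells, at 27.5% (22.4 to 33.2%) and 15.1% (8.88 to 23.4%). The libraries stood apart beyond counting error in monocyte-like cells, at 37.3% (30.5 to 44.5%) and 25.4% (23.2 to 27.7%). With all cells counted they also did in sustentacular-like cells, at 58.1% (55.1 to 61.0%) and 43.7% (37.5 to 50.04%). There 1 wild-type cell held 38 of 143 H2-D1 and 15 of 111 H2-K1 UMIs. Without it H2-D1 was 123 CPM and H2-K1 112 CPM, and its part in the share was not tested. In Bowman's gland-like cells the shares were 59.8% and 41.2% and in mature OSN-like cells 48.0% and 30.8%, with overlapping intervals. Free RNA stood at 49.5% (43.8 to 55.2%) and 38.3% (33.6 to 43.3%), also apart beyond counting error.

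B2m, the light chain, did not keep 1 proportion to the heavy chains. Fibroblast-like cells had 355 CPM of B2m in the transgenic and 466 CPM in the wild-type library, above their H2-D1 (160 and 155 CPM) and H2-K1 (92.7 and 112 CPM). Tuft-type cells showed the opposite balance, with 47.9 and 47.0 CPM of B2m beside 564 and 528 CPM of H2-D1. Those B2m levels were 50.4% and 51.6% of the level in free RNA of the same library, where Hbb-bs, a gene of red cells, stood at 2.31% and 1.13%. Tap1 had 0 UMIs in tuft-type cells of both libraries, which allows up to 8.46 and 17.6 CPM. Its higher levels were all in white blood cells, among them T or NK-like (5 and 7 UMIs in 7 and 14 cells), monocyte-like (66.4 and 59.1 CPM), dendritic-like (31.9 and 90.3 CPM) and myeloid progenitor-like cells (46.3 and 30.8 CPM). Macrophage-like cells had 34.6 and 20.9 CPM and endothelial-like cells 23.6 and 18.9 CPM.

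Along the neuronal classes the class I genes took separate courses. H2-D1, the heavy chain that led in most neuronal classes, was highest in the dividing progenitors, globose basal cell (GBC)-like, at 28.9 CPM over 33 transgenic cells and 50.5 CPM over 4 wild-type cells. It was low in mature OSN-like cells at 2.88 and 4.81 CPM. B2m had its highest neuronal levels between these stages. In the Gap43-led immature cluster B2m was 37.8 and 28.8 CPM, in the Calb2-led cluster 44.8 and 53.6 CPM, and in mature OSN-like cells 12.3 and 17.8 CPM. Tap1 had at most 3 UMIs in any transgenic neuronal class and at most 5 in any wild-type one. All these levels were below those of free RNA, whose B2m stood at 95.2 and 91.0 CPM.

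H2-K1 departed from that course in 1 immature cluster. The cluster, led by Tex15 and holding immature OSN markers, had 114 CPM of H2-K1 (92.2 to 141, 91 UMIs) in 59 transgenic cells and 73.3 CPM (35.1 to 135, 10 UMIs) in 8 wild-type cells. In the immediate neuronal precursor (INP)-like, Gap43-led, Calb2-led and mature classes of both libraries, H2-K1 lay between 1.53 and 8.45 CPM, and GBC-like cells had 11.4 and 21.6 CPM. No interval of these transgenic classes reached that of the Tex15-led cluster. Counted over all UMIs, H2-K1 there was 158% and 111% of its free RNA level. B2m of the same cells stood at 7.93% and 8.06% of its own free RNA level and Hbb-bs at 2.02% and 1.66%.

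The H2-K1 signal of the Tex15-led cluster was spread over cells but not over all of them. It was seen in 26 of 59 transgenic cells (44.1%, 31.2 to 57.6%) and 2 of 8 wild-type cells, and 13 transgenic and 2 wild-type cells had at least 3 UMIs. The richest transgenic cell held 9 UMIs, 9.89% of the total. The other class I genes were not high with it: H2-D1 was 11.3 CPM in transgenic cells and had 0 UMIs in the wild-type ones, and B2m was 7.55 and 7.33 CPM. H2-K1 thus formed 91.0% (83.6 to 95.8%) of transgenic heavy chain UMIs and all 10 of the wild-type ones. At clustering resolution 0.5 and at a minimum of 2000 UMIs this cluster merged with Gap43-led cells and its transgenic H2-K1 was 37.0 and 35.7 CPM, and with a mitochondrial limit of 20% it was 194 CPM.

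Within the 59 transgenic cells, the 13 with at least 3 H2-K1 UMIs (median depth 15543 UMIs) were set beside the 33 with none (11982 UMIs). This split uses H2-K1 itself, so only the other genes are informative, and they are given as a description. The cells with H2-K1 had no UMI of Neurod1, a precursor transcription factor, against 55.4 CPM in those without, and Gap43, a growth cone gene, was 208 against 479 CPM. Gng8, a G protein subunit of immature OSNs, was 1255 against 799 CPM, and Tex15 differed less, at 4488 and 4054 CPM. B2m had 0 UMIs in the cells with H2-K1 and 4 in those without, too few to compare at this depth. Macrophage markers in the transgenic Tex15-led cluster summed to 74.2 CPM with none of the 7 at 0, against 7.33 CPM with 6 of 7 at 0 in the wild-type one. Of these markers C1qa was 19.8 CPM in the cells with H2-K1 and 43.3 CPM in those without.

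**Figure D3:**
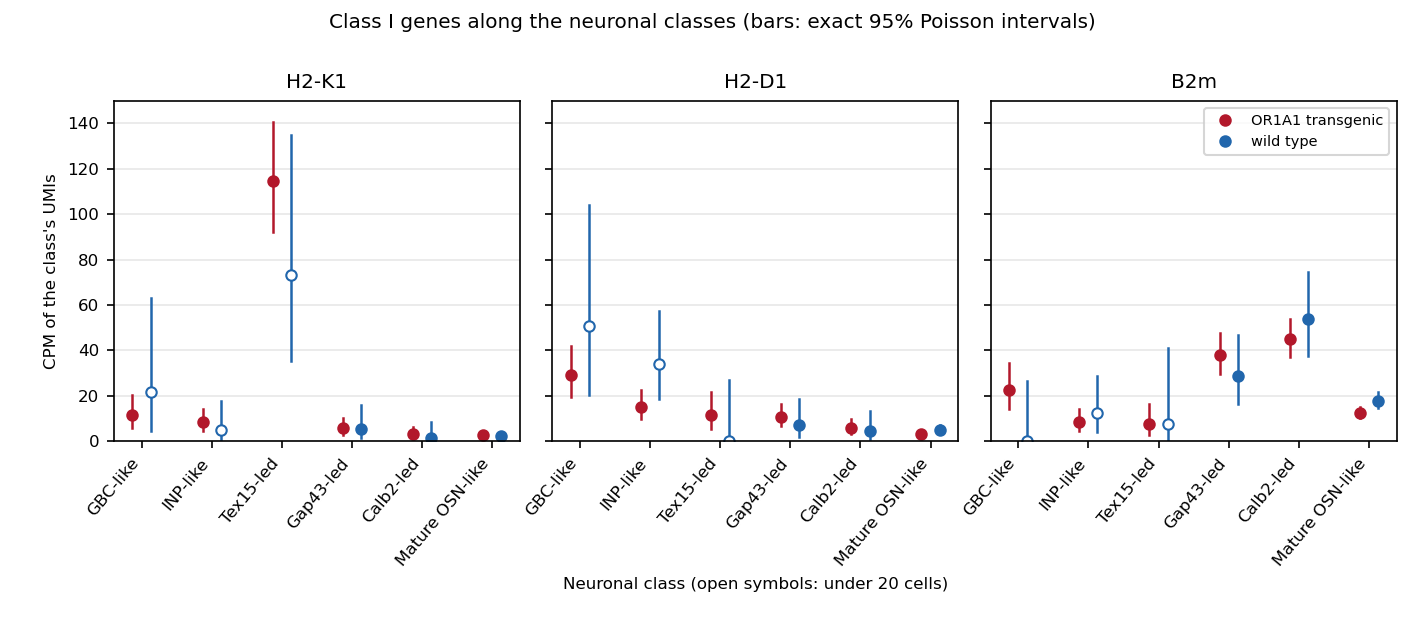
CPM of H2-K1, H2-D1 and B2m (panels) along 6 neuronal classes, with the transgenic library in red left of the wild type in blue; bars are exact 95% Poisson intervals and open symbols are classes under 20 cells. H2-K1 stands out in the Tex15-led cluster at 114 and 73.3 CPM, where H2-D1 and B2m stay at 11.3 CPM or less.

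Class II levels were set by a few myeloid classes. Dendritic-like cells, whose naming markers included no class II gene, had a class II sum of 66631 CPM over 11 transgenic cells and 66229 CPM over 12 wild-type cells, and each of these cells exceeded 10000 CPM, the lowest at 40186 and 48929 CPM. Cd74 alone was 31771 and 30101 CPM there, and Ciita reached its highest level, 313 and 441 CPM. Monocyte-like cells had class II sums of 13106 CPM over 9 transgenic cells and 23135 CPM over 59 wild-type cells, with 2 of the 9 and 33 of the 59 above 10000 CPM. A transgenic cell held 829 of the 1381 transgenic UMIs, and without it that sum was 5906 CPM. Macrophage-like cells had 10347 CPM (10119 to 10580) in 77 transgenic and 19425 CPM (18919 to 19941) in 31 wild-type cells. Myeloid progenitor-like cells had 1146 CPM (1083 to 1211) in 32 wild-type cells, unequal from cell to cell with a highest value of 34544 CPM. The 6 transgenic ones held 144 class II UMIs. Ciita stood at 38.0 and 164 CPM in monocyte-like and at 33.3 and 45.2 CPM in macrophage-like cells. Neutrophil-like cells, by contrast, had 9.87 and 33.6 CPM beside their high class I, and T or NK-like cells 58.0 and 34.3 CPM, all far below free RNA.

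Macrophage-like cells, marked by C1qa and Mrc1, were unequal in class II. The per-cell class II sum had a median of 214 CPM over transgenic and 545 CPM over wild-type cells, while its 90th percentile was 43406 and 64268 CPM. Cells above 10000 CPM numbered 17 of 77 (22.1%, 13.4 to 33.0%) and 11 of 31 (35.5%, 19.2 to 54.6%), with 6 and 3 cells within 2-fold of that limit, and at least 1 UMI of all 4 genes was seen in 26 transgenic and 14 wild-type cells. The class therefore mixes cells with little and with much class II, and the intervals of the shares overlapped between libraries.

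Genes outside the class II sum also differed between the macrophage-like cells above that limit and the rest, in a split that rests on class II itself and gives a description only. Ciita was 145 against 1.71 CPM in the transgenic library and 108 CPM against 0 UMIs in the wild type. H2-DMa and H2-DMb1, which encode the chaperone that loads class II, were 725 against 231 and 640 against 99.1 CPM in transgenic cells, and 588 against 204 and 307 against 95.9 CPM in wild-type cells. H2-K1 was close between the sets in the transgenic library, at 622 and 555 CPM, and further apart in the wild type, at 729 and 491 CPM. The monocyte marker Ccr2 was 260 against 32.5 CPM in transgenic cells and 74.6 CPM against 0 UMIs in wild-type cells. The macrophage genes C1qa (5697 against 7092 and 4799 against 6285 CPM) and the chemokine Ccl12 (308 against 1683 and 829 against 1366 CPM) were lower in the cells with more class II in both libraries. Mrc1, another macrophage marker, was 477 against 1100 CPM in transgenic but 1193 against 1024 CPM in wild-type cells.

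**Figure D4:**
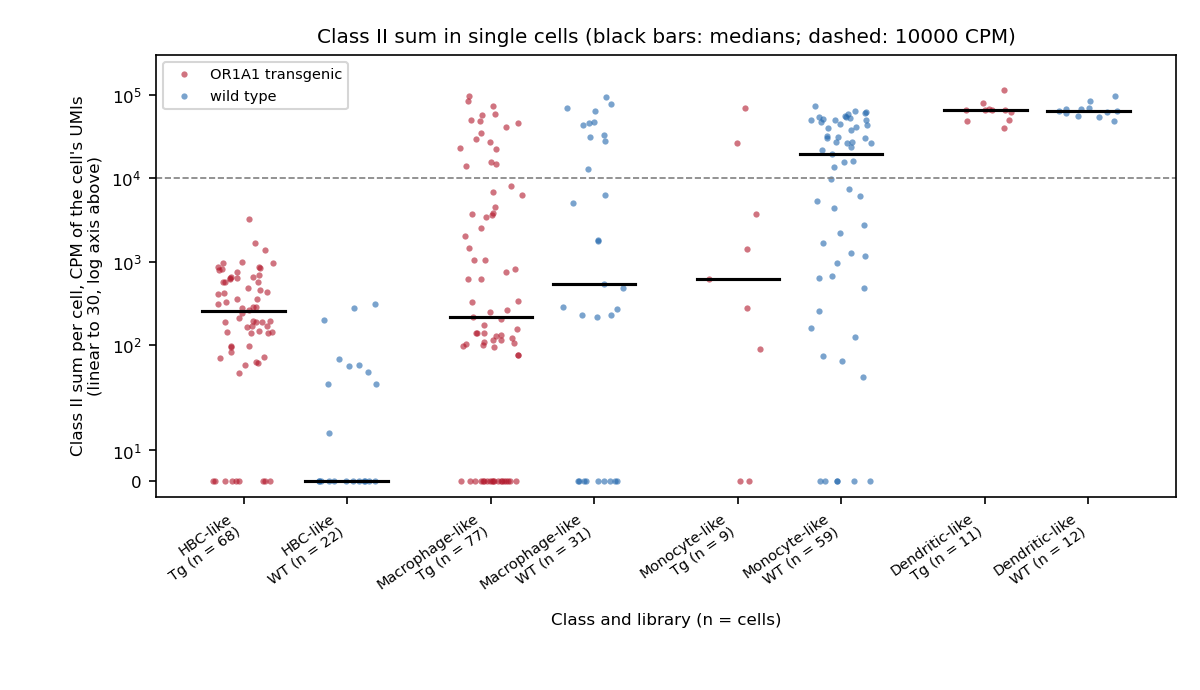
Class II sum of each single cell, in CPM of that cell's UMIs (linear to 30, log above), for HBC-like, macrophage-like, monocyte-like and dendritic-like cells, with transgenic cells in red left of wild-type cells in blue; black bars are medians and the dashed line marks 10000 CPM. All dendritic-like cells lie above that line, macrophage-like cells spread from 0 to above it, and HBC-like medians are 255 and 0 CPM.

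Free RNA held much class II, so low levels elsewhere were read against it. In mature OSN-like cells the class II sum was 9.09 CPM (7.23 to 11.3) in the transgenic and 18.2 CPM (14.8 to 22.1) in the wild-type library, which is 2.00% and 2.32% of the free RNA level. Hbb-bs stood at 1.66% and 1.09% of its free RNA level in the same neurons. The part of free RNA in these counts was not tested, and neither expression nor a difference was read from them. Ciita had 1 UMI over all transgenic neurons of this class and 0 over the wild-type ones. The log2 ratio of the class II sum in macrophage-like over mature OSN-like cells was 10.14 in the transgenic library and 10.05 in the wild type, ratios against a level not separated from free RNA.

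Transgenic HBC-like cells had class II UMIs in most cells. At least 1 class II UMI was seen in 86.8% of transgenic and 45.5% of wild-type HBC-like cells, and in 67.6% and 9.09% once each cell was thinned to 5000 UMIs, against 16.5% and 4.76% of thinned sustentacular-like and 3.25% and 8.62% of thinned mature OSN-like cells. Their class II sum was 335 CPM (305 to 368) in 68 transgenic and 71.8 CPM (51.8 to 97.1) in 22 wild-type cells. Cd74, the invariant chain, made 246 CPM (220 to 273) against 49.6 CPM (33.2 to 71.2), and it was detected in 55 of 68 transgenic cells (80.9%, 69.5 to 89.4%) and 6 of 22 wild-type cells (27.3%, 10.7 to 50.2%). Thinned, the shares were 61.8% and 4.55%. Counted over all UMIs, the class II sum was 73.8% and 9.17% of the free RNA level, where Hbb-bs of the same cells stood at 1.10% and 0.537%. The chains were lower: H2-Aa was 35.4 and 6.84 CPM, H2-Ab1 23.6 and 10.3 CPM, and H2-Eb1 31.0 and 5.13 CPM. Ciita had 8 and 2 UMIs.

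The mix of class II genes in transgenic HBC-like cells was not that of the myeloid cells. Cd74 formed 73.2% (68.9 to 77.2%) of class II UMIs in transgenic and 69.0% (52.9 to 82.4%) in wild-type HBC-like cells. Cd74 formed 49.0% and 42.5% in macrophage-like cells, 47.7% and 45.4% in dendritic-like cells and 48.5% and 44.6% in free RNA. A high Cd74 share was not particular to HBC-like cells among transgenic epithelial classes of at least 20 cells. It was 69.6% (47.1 to 86.8%) of 23 UMIs in Dcpp1-led cells and 91.7% (61.5 to 99.8%) of 12 in ionocyte-type cells. Sustentacular-like cells had 59.7% (47.9 to 70.8%) of 77 UMIs. The share was lower in Bpifa1-led (50%), tuft-type (44%) and Bowman's gland-like cells (25%). Macrophage markers in HBC-like cells summed to 23.6 CPM with 2 of 7 at 0 in the transgenic and 3.42 CPM with 6 of 7 at 0 in the wild-type library, against 18908 and 19495 CPM in macrophage-like cells, whose class II sums were 10347 and 19425 CPM. Markers of dendritic cells in HBC-like cells summed to 3.69 CPM with 6 of 9 at 0 and 3.42 CPM with 7 of 9 at 0. The part of such cells in the HBC-like level was not tested. H2-DMb1 had 41 UMIs (30.2 CPM) in transgenic and 4 UMIs (6.84 CPM) in wild-type HBC-like cells, and H2-DMa 24.3 and 13.7 CPM.

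In the wild-type HBC-like class 1 deep cell of 73680 UMIs held 23 of the 42 class II UMIs. Without the richest cell of each library the class II sums were 308 and 37.2 CPM. Transgenic over wild type, the log2 ratio was 2.19 (1.77 to 2.72) with all cells and 2.98 without those 2 cells. At clustering resolution 0.5 it was -1.06, a turn of direction in a class that there also held the Bpifa1-led cells and the Obp1a-led cells, with the wild-type cells rich in class II described next. With a mitochondrial limit of 20% it was 1.03.

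In several epithelial and vessel classes 1 cell carried most of the class II. A wild-type sustentacular-like cell held 616 of 656 class II UMIs of that class, and without it the sum was 46.8 CPM instead of 698 CPM. That cell had 219 UMIs of the myeloid markers, where the median of the other cells was 0. A wild-type Obp1a-led cell held 547 of 556 UMIs and a wild-type Bpifa1-led cell 166 of 187, with 141 and 107 marker UMIs. Others carried few marker UMIs, namely 6 in a transgenic tuft-type cell with 43 of 50 class II UMIs and 1 each in a wild-type Dcpp1-led cell with 43 of 61 and a wild-type endothelial-like cell with 34 of 58. The part of such cells in the class levels is given by the values without them, which were 20.6 CPM for the tuft-type and 21.2 CPM for the Dcpp1-led class.

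The libraries were compared in the 11 classes with at least 20 cells in both, over genes with at least 20 CPM and 50 UMIs in 1 of them, called measured here. Tap1 and Ciita were measured in no class, and no member in mature OSN-like cells, where 1.65% of 7038 measured genes were higher by 2-fold in the transgenic library and 3.32% lower. B2m alone was measured in the Gap43-led and Calb2-led clusters, H2-K1, H2-D1 and B2m in fibroblast-like and endothelial-like cells, and none passed 2-fold there, where the background was 1.95%, 2.53%, 2.14% and 1.89% of genes higher and 1.03%, 0.9%, 1.44% and 1.39% lower. The H2 haplotypes of the strains are not given in the labels, and how alleles unlike the reference genome were counted was not tested, which bears on every library ratio of an H2 gene. In endothelial-like cells all 3 were lower in the transgenic library, by log2 ratios of -0.30 for H2-K1 (491 and 603 CPM), -0.20 for H2-D1 (815 and 937 CPM) and -0.52 for B2m (507 and 729 CPM). The class I sum in mature OSN-like cells had a log2 ratio of -0.47 (-0.81 to -0.14), or -0.22 (-0.78 to 0.36) with each cell thinned to 5000 UMIs. It was -0.32 (-0.41 to -0.24) in endothelial-like, -0.27 (-0.46 to -0.08) in fibroblast-like and -0.25 (-0.36 to -0.13) in macrophage-like cells, and 0.41 (0.20 to 0.63) in HBC-like cells.

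In macrophage-like cells 3 of 7 measured members were lower by 2-fold in the transgenic library, where 0.756% of 2249 genes were lower and 2.36% higher. They were the class II chains: H2-Aa had 1937 and 3999 CPM in the transgenic and wild-type libraries (log2 ratio -1.05), H2-Ab1 1664 and 3634 CPM (-1.13) and H2-Eb1 1680 and 3533 CPM (-1.07). Cd74 was 5067 and 8259 CPM (-0.71), and the class II sum had a log2 ratio of -0.91 (-0.96 to -0.86). That interval does not cover the spread between cells, and the shares of cells above 10000 CPM had overlapping intervals. Monocyte markers in the same cells summed to 273 and 205 CPM and dendritic markers to 176 and 118 CPM, with 4 and 5 of 9 at 0, and their part in the ratio was not tested. H2-K1 was 570 and 591 CPM, H2-D1 839 and 949 CPM and B2m 1233 and 1593 CPM, with none past 2-fold.

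Among the other classes 1 of 4 measured members, Cd74, was past 2-fold higher in transgenic HBC-like cells (2.26, 1.76 to 2.91), where 1.63% of 4105 genes were higher and 1.12% lower. H2-K1, H2-D1 and B2m there had log2 ratios of 0.39 to 0.41. In sustentacular-like cells 4 of 7 members, the class II ones, were past 2-fold lower, against 1.04% of genes lower and 2.02% higher. These ratios rest largely on the wild-type cell above: the class II log2 ratio was -5.08 with it and -1.35 (-1.92 to -0.73) without the richest cell of each library. Without those cells H2-Aa was at -2.10, from 7 UMIs in each library, H2-Ab1 at -0.64, H2-Eb1 at -0.99 and Cd74 at -1.48. In the Bpifa1-led cluster 1 of 4 members, Cd74, was lower, against 1.86% of genes lower and 3.31% higher. Its log2 ratio was -3.54 with and -0.43 without the richest cell of each library. In the Dcpp1-led cluster 2 of 4 members were lower, against 2.14% of genes lower and 1.79% higher, B2m at 56.8 and 131 CPM (-1.20) and Cd74 at 14.7 and 61.1 CPM (a log2 ratio of -0.85 without those cells). In tuft-type cells 1 of 2 measured members was higher, against 1.67% of genes higher and 0.92% lower, H2-K1 at 214 and 93.9 CPM (1.12, 0.40 to 2.07), beside H2-D1 at 564 and 528 CPM (0.09).

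**Figure D5:**
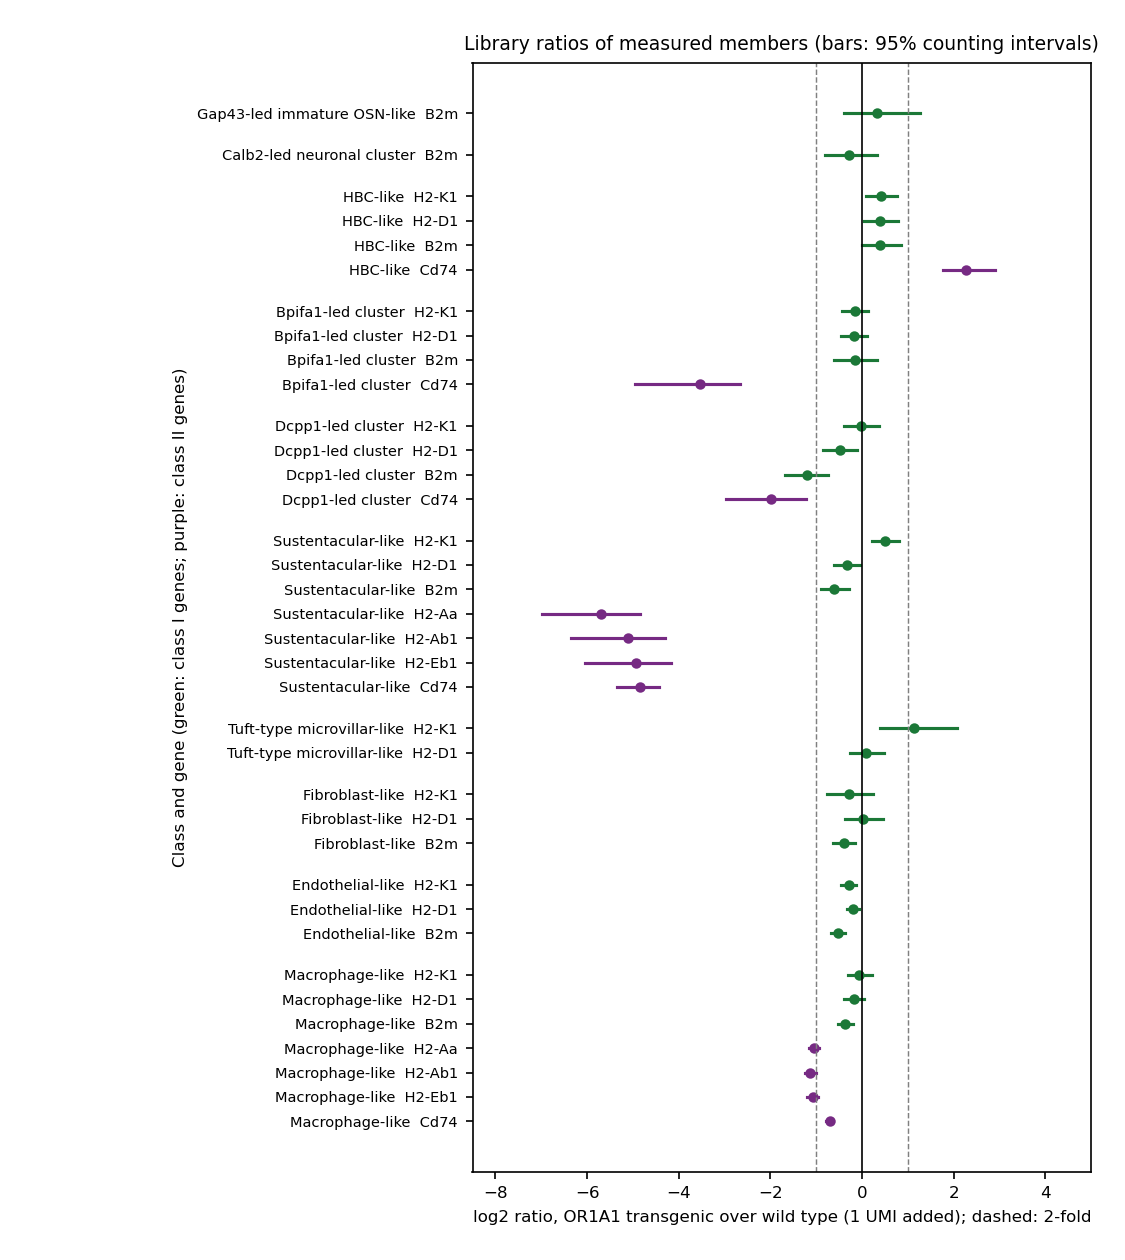
Log2 ratio, transgenic over wild type, for each measured member in each of the compared classes, with 95% counting intervals as bars, class I genes in green and class II genes in purple; dashed lines mark 2-fold. Most class I ratios lie within 2-fold, and the class II ratios run from the sustentacular-like values near -5, which rest largely on 1 wild-type cell, to 2.26 for Cd74 in HBC-like cells.

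The partners of these genes in the pathway were taken from listed genes. Of 31 other genes listed for class I in the files, 11 were measured in macrophage-like cells with a median log2 ratio of 0.12, against 0.00 over all measured genes. In mature OSN-like cells 8 were measured with a median of 0.25 against -0.04. The largest ratio there, 0.51, was that of H2-Ke6, a gene named for the H2 region without a known part in class I presentation, and the median without it was not taken. None of the listed genes passed 2-fold in either class. Over all measured genes 3.11% in macrophage-like and 4.97% in mature OSN-like cells passed it, so lists this short say little by that count. The lectin chaperone Calr was 546 and 598 CPM in macrophage-like and 442 and 342 CPM in mature OSN-like cells, and its partner Pdia3 400 and 369 CPM and 269 and 215 CPM. Psmb8, a subunit gene of the immunoproteasome, with 197 and 139 CPM in macrophage-like cells, had 6 and 8 UMIs in mature OSN-like cells. Tapbp, which bridges the class I chain to the transporter, was 112 and 101 CPM in macrophage-like and 44.2 and 56.7 CPM in mature OSN-like cells.

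Of 18 other class II pathway genes, 9 were measured in macrophage-like cells with a median of 0.23 and 4 in mature OSN-like cells with a median of 0.02, with none past 2-fold, beside the same shares over all genes. The cathepsin Ctss, which trims the invariant chain, had 2899 and 2420 CPM in macrophage-like cells, and the loading chaperone gene H2-DMa 340 and 365 CPM. The ubiquitin ligase gene Marchf1, whose product removes class II from the surface, had 67.9 and 90.4 CPM. The largest log2 ratios of this list in macrophage-like cells were 0.52 for Cd86 and 0.49 for the cathepsin gene Ctsl. The smallest were -0.44 for Marchf1 and -0.11 for H2-DMa. H2-Oa and H2-Ob, which restrain that chaperone, were mainly in dendritic-like cells, at 281 and 211 CPM and 109 and 145 CPM. Mature OSN-like cells held the lysosomal protease gene Lgmn at 99.7 and 109 CPM and the class II promoter factor gene Rfxap at 50.2 and 57.2 CPM, beside the low class II chains given above. In HBC-like cells 6 of the other class I genes were measured with a median of 0.26 and 3 of the other class II genes with a median of 0.36, against -0.03 over all measured genes. None passed 2-fold, which 1.63% of all genes did upward and 1.12% downward.

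Interferons are known inducers of both routes, and 27 interferon genes were followed beside them. In macrophage-like cells 10 were measured, with a median log2 ratio of 0.11, and 1, the membrane protein gene Ifitm3, was past 2-fold higher in the transgenic library at 133 and 48.7 CPM, where 2.36% of all genes were higher and 0.756% lower. The receptor genes Ifngr2 (196 and 309 CPM) and Ifnar1 (112 and 202 CPM) had log2 ratios of -0.67 and -0.86. In mature OSN-like cells, where 1.65% of all genes were higher and 3.32% lower, 5 were measured: Ifit1 was past 2-fold higher at 132 and 56.7 CPM (1.21, 1.03 to 1.40) and Ifi27 past 2-fold lower at 26.7 and 72.0 CPM (-1.43, -1.67 to -1.20). The class I sum of the same neurons was 17.8 and 24.8 CPM. In HBC-like cells 6 interferon genes were measured, with a median log2 ratio of 0.44 against -0.03 over all measured genes. Of these, 2 were past 2-fold higher in the transgenic library and 0 lower, where 1.63% of all genes were higher and 1.12% lower.

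The genes whose level was most like the class sums were found over 31 points, each a class of at least 20 cells in 1 library, which share their library and its free RNA. For the class I sum these were Stat6, Ripk1, Arpc1b, Gnai2 and Gm26532, with Pearson correlations of log2(CPM + 5) of 0.90 to 0.92, and the class I sum itself stood at 0.79 with Tap1. For the class II sum they were Cd68, Gm44751, Pld4, Ctsc and Ms4a6b, at 0.89 to 0.92, and Ciita stood at 0.90.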

How the data were processed

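The authors deposited raw UMI counts of every barcode, not filtered to cells, for 1 transgenic and 1 wild-type library; per the submitters' processing notes Cell Ranger 6.1.1 and GRCm39 (mm39) were used, and the matrix headers name Cell Ranger 4. Cells were barcodes above a minimum of 1000 UMIs or, if higher, 10% of the 99th percentile among the top 5000 (5827.5 and 5317.7 UMIs), with 500 genes and at most 10% mitochondrial UMIs. Scrublet, run in scanpy 1.11.5, marked only 4 and 2 doublets (0.229% and 0.179%), so the top 5% of doublet scores were dropped in an alternative. Both libraries (70572741 and 55701219 UMIs) were clustered together (2000 variable genes, 30 components, 15 neighbours, Leiden resolution 1, 27 clusters) without the 9 members, the other pathway and interferon genes listed and every H2 gene. Clusters were named from 24 marker lists, at a mean log2 excess of 1 and at least 3 markers at 2-fold. Clusters led by genes against their name are called by their leading genes, and mixed clusters were divided by names at resolution 2, a step chosen after the data were seen; 29 cells stayed unnamed. A difference from other accounts of these cells may come from such rebuilt names.

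Ratios had 1 UMI added to each sum and conditional binomial intervals, and shares exact Clopper-Pearson intervals. The named genes are all members in classes of at least 20 cells and the 5 genes most like each class sum. Of the highest and most different genes of each pathway list in macrophage-like and mature OSN-like cells, only some are named. Single-cell splits and the genes shown in them, smaller classes, H2-Oa, H2-Ob, H2-DMb1 and the Tex15-led cluster were picked after values were seen. Members and lists were chosen with earlier results of these data known. Exact 90-base words of reference transcripts set the near-identical class I genes apart. In the last 500 bases of coding transcripts, 2 of 1323 such words of H2-K1 occur in other genes, and none of the other 8 members. Near matches and alleles unlike the reference were not covered, so how the reads of these animals were split was not tested. H2-K2, H2-L, H2-T9, H2-T10, H2-Ea and H2-Ea-ps were not analysed here. Promoter windows keep the 250 bases before the start instead of the 300 around it, so that no transcribed base is shown. Scripts were tested on simulated counts. Python 3.11.15, numpy 2.4.6, scipy 1.17.1, pandas 2.3.3, anndata 0.12.19, igraph 0.11.9, leidenalg 0.10.2 and matplotlib 3.10.9 were used.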

Additional observations from a re-analysis of the deposited data

Results flagged for a closer look

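Some members had library ratios on opposite sides of 1 in different classes, with counting intervals that did not reach 1, and these differences between classes were not tested. As a log2 ratio, transgenic over wild type, H2-K1 was 1.12 in tuft-type microvillar-like cells and -0.30 in endothelial-like cells. For H2-D1 it was 0.39 in HBC-like cells and -0.48 in the Dcpp1-led cluster, where 1 wild-type cell held 45 of 135 UMIs and the levels without the richest cell of each library were 102 and 111 CPM. For Cd74 it was 2.26 in HBC-like cells and -4.85 in sustentacular-like cells, where it was -1.48 without the richest cell of each library. The class II sum turned direction in both of these classes under an alternative, to -1.06 in HBC-like cells at resolution 0.5 and to 1.25 in sustentacular-like cells without the highest doublet scores.

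Class II also appeared in barcodes that the main depth limit left out. At a minimum of 1000 UMIs a B or plasma-like cluster of 10 transgenic and 45 wild-type barcodes, with median depths of 5224.5 and 3869 UMIs, had 5486 and 7287 CPM of Cd74 and 88.5 and 133 CPM of Ciita, above free RNA in both libraries.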

How the results depend on the processing

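No paired analysis was possible because there was 1 library per genotype, and no replicate could be left out. The class I log2 ratio in mature OSN-like cells (-0.47) ran from -0.92 to -0.22 over 11 alternatives with -0.22 (-0.78 to 0.36) when thinned, and was -0.92 at clustering resolution 0.5 and -0.90 at a mitochondrial limit of 20%. The class II ratio in macrophage-like cells (-0.91) was -0.84 and -0.77 at minima of 1000 and 2000 UMIs, -0.99 at the 20% limit, -0.71 without the 5% highest doublet scores, -0.82 as a mean of cells' own CPM and -0.80 thinned to 5000 UMIs. The class II excess of macrophage-like over mature OSN-like cells stayed between 9.95 and 10.35 in the transgenic library, and in the wild type it was 9.51 when thinned. Class II in HBC-like cells turned to -1.06 at resolution 0.5, and in sustentacular-like cells to 1.25 without the highest doublet scores. H2-K1 in the Tex15-led cluster was 37.0 CPM at resolution 0.5 and 35.7 CPM at 2000 UMIs, where the cluster merged with Gap43-led cells. At the 20% limit it was 194 CPM, and the cause of that rise was not tested. With genes of 5 CPM and 20 UMIs included, 786 of 10467 genes passed 2-fold in mature OSN-like cells, against 350 of 7038, and 315 of 4903 in macrophage-like cells, against 70 of 2249. Tap1 and Ciita had too few UMIs to be compared in any class.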

Other observations

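Cd1d1, which encodes a class I-like chain that presents lipids, was most visible among neuronal classes in INP-like cells, at 44.7 CPM (74 UMIs) in the transgenic and 48.7 CPM (20 UMIs) in the wild-type library, where H2-K1 was 8.45 and 4.87 CPM. In mature OSN-like cells it had 0 and 1 UMIs and in macrophage-like cells 10.7 and 10.4 CPM. H2-T23, a class I gene whose product presents leader peptides, was 102 and 176 CPM in tuft-type cells and 125 and 144 CPM in endothelial-like cells, against 0.997 and 3.74 CPM in mature OSN-like cells. These genes were singled out after their values were seen.

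Mature OSN-like cells were also grouped by their UMIs of 6 interferon-induced genes. With 0, 1 to 2 and at least 3 such UMIs the class I sum was 19.7, 19.8 and 13.8 CPM in 214, 230 and 202 transgenic cells, and 24.9 and 26.0 CPM in 244 and 157 wild-type cells and came from 11 UMIs in the remaining 40, with intervals that overlapped within each library. Sets of cells defined by a measured count are descriptions, and no test was made.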
